A study of Mus musculus with 11 samples.

Results

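Interleukin-6 signalling was examined at the level of chromatin in CD4 T cells, at the peaks of 8 genes: the receptor subunits Il6ra and Il6st, the kinases Jak1 and Jak2, the transcription factors Stat3 and Stat6, and the feedback inhibitors Socs1 and Socs3. Accessibility was measured by ATAC-seq, in which a transposase cuts and tags open DNA, so that reads pile up at promoters and at regulatory sites away from them. The members were chosen by position: a consensus peak belonged to a gene when the RefSeq transcription start nearest to its centre was that gene's. By this rule 102 of 38509 peaks were members. There were 25 for Il6st, 23 for Jak1, 16 for Socs1, 13 for Jak2, 12 for Il6ra, 6 for Stat3, 6 for Socs3 and 1 for Stat6. Only 8 of the 102, 1 per gene, had their centre within 1000 bases of a start (promoter peaks), and 94 were distal. The rule does not show which gene a distal peak acts on. When predicted transcripts were also allowed to claim peaks, 60 peaks remained with the 8 genes.

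All cells came from untreated wild-type C57BL/6 mice with a polyclonal T cell repertoire and a GFP reporter of Foxp3, and were sorted fresh from mixed spleen and lymph node. The age of the mice is not given in the sources used here. Naive cells (2 libraries) had low CD44. Effector (Teff) and anergic cells, 3 libraries each, both had high CD44 and no FOXP3. They were split by CD73 and FR4, which were low in Teff and high in anergic cells, the latter also carrying NRP1. Regulatory cells (Treg, 3 libraries) had FOXP3 and CD25. Each group is thus a surface phenotype, and the anergic group holds whichever cells pass that gate. Libraries held 14668425 to 68818591 reads in peaks, and a member peak had a median of 206 reads per library. Whether replicates are separate animals is not stated, and the spread behind each p-value may therefore be technical.

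The sorted groups were checked against their markers. All 8 genes of the CD4 T cell and sort list had peaks, and the Foxp3 peak had a mean signal of 11.6 in naive, 31.1 in Teff, 131 in anergic and 1330 in Treg cells. In the same order, means were 438, 931, 1410 and 1150 at the Nt5e (CD73) promoter and 650, 1070, 2270 and 1680 at the Izumo1r (FR4) promoter. Peaks nearest the start had 206, 401, 539 and 395 at Cd44 and 281, 355, 669 and 625 at Nrp1. That of Il2ra (CD25) had 350, 424, 284 and 630. Not every peak followed the gate. Nt5e at 29.7 kb had 191 in Teff and 88.6 in anergic cells, and Izumo1r at -4.39 kb had 1390 and 1380. The B cell genes Cd79a, Ms4a1, Pax5 and Blk had no peak, and signal summed over the B cell list ranged from 404 to 628 over all libraries. Of 7 myeloid genes 4 had none (Csf1r, Lyz2, Cd14 and Flt3), with sums of 1160 to 2450, highest in Teff (1980 to 2450). Of 7 erythroid and platelet genes 4 had none (Gata1, Hba-a1, Hbb-bt and Gp9), with sums of 3200 to 4850, highest in anergic cells (4470 to 4850). Of 27 peaks of CD8, NK and innate-like T cell genes, 17 were lower and 1 higher in anergic than in Teff cells, and 18 lower and 2 higher in Treg than in Teff (over all peaks, 16.8% and 18.2% were lower). Zbtb16 held 13 of the 17 and 12 of the 18 and Klrb1c the rest, whereas Cd8b1 and Eomes had none lower in either. Those 2 genes gave the 2 higher in Treg than in Teff. The Cd8b1 peak at -0.158 kb had means of 1130 in naive, 199 in Teff, 197 in anergic and 696 in Treg cells. The Eomes peak at 0.957 kb had 282 in Treg and 138 in Teff cells. Signal summed over this list was 25200 to 29000 in Teff, 20900 to 26400 in anergic, 19500 to 24900 in Treg and 23900 to 24400 in naive cells. Cd8a, Ncr1 and Trdc had no peak. The part of other cells in the comparisons was not tested. In sorted pools, fewer open cells and less opening in each cell cannot be told apart.

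Interleukin-6 binds its own receptor chain, encoded by Il6ra, and the complex then recruits the shared chain gp130, encoded by Il6st. Gp130 carries the kinases JAK1 and JAK2, which phosphorylate STAT3; STAT3 enters the nucleus and binds paired TTC and GAA half-sites. STAT6 works in the same way behind the interleukin-4 receptor. SOCS3 binds gp130 and JAKs, SOCS1 inhibits JAKs behind several receptors, and both are induced by the cytokines they restrain. In CD4 T cells, interleukin-6 with STAT3 is known for favouring Th17 and follicular helper fates over regulatory ones.

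The central 300 bases of 5 distal peaks are printed, 1 for each of 5 genes whose distal peaks separate the groups in different ways. Sequences are the plus strand of mm10, read from the GRCm38 genome, and capitals mark matches, on either strand, to TTCNNNGAA (STAT), the same half-sites 1 base further apart (the spacing of STAT6), TGANTCA (AP-1, the family that includes BATF) or TGTGGT (RUNX). The windows are chr19:29271116-29271415 in Jak2 intron 2, chr4:101175116-101175415 in Jak1 intron 8, chr3:89880117-89880416 in Il6ra intron 6, chr11:100952263-100952562 upstream of Stat3, and chr16:10668813-10669112 in intron 18 of Clec16a, for which the nearest start is that of Socs1.
Jak2, 19.5 kb: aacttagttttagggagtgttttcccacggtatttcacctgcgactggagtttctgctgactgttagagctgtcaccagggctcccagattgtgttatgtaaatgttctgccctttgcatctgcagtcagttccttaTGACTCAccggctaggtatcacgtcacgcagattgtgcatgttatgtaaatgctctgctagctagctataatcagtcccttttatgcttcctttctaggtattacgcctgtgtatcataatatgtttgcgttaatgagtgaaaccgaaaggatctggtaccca
Jak1, 90.0 kb: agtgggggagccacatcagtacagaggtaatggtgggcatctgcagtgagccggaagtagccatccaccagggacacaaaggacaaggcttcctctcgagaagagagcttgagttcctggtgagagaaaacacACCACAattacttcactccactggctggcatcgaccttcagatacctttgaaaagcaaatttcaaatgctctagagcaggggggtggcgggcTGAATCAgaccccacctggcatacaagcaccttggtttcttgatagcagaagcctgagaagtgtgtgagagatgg
Il6ra, 32.9 kb: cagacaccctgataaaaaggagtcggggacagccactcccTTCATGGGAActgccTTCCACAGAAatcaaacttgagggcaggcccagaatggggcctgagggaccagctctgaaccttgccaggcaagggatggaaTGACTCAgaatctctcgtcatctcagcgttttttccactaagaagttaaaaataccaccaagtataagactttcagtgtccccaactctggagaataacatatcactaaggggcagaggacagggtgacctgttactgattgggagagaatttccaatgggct
Stat3, -12.9 kb: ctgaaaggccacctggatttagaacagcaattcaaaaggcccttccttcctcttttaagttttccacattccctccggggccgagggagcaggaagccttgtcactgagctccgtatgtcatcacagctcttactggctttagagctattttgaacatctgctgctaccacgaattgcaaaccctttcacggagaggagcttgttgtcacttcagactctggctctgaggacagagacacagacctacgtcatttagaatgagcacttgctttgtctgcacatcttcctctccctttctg
Socs1, 117 kb: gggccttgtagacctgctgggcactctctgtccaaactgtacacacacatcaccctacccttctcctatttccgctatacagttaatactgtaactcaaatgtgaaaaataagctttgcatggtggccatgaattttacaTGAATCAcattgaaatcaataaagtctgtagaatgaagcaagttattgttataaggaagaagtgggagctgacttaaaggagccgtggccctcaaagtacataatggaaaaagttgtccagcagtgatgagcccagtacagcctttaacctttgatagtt
The Jak2 and Socs1 windows each held 1 AP-1 match, the Jak1 window 1 AP-1 and 1 RUNX match, and the Il6ra window 2 matches of the STAT6 spacing and 1 AP-1 match. No match lay in the Stat3 window. Nor was there a match in the windows, not printed, of Il6st at -65.7 kb, Socs3 at 3.78 kb and Stat3 at 26.6 kb.

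Matches to the STAT motif TTCNNNGAA lay in the windows of 12 of the 102 member peaks (11.8%), against 7.69% of all 38441 peaks on chromosomes. The STAT6 spacing was found in 6.86% of member and 6.49% of all windows, AP-1 in 12.7% and 11.8%, and RUNX in 27.5% and 26.3%. Members are mostly distal, and the shares depend on the kind of peak. Among distal peaks alone, the STAT motif lay in 11.7% of member and 8.81% of all windows. There the STAT6 spacing lay in 7.45% and 7.49%, AP-1 in 12.8% and 15.3%, and RUNX in 29.8% and 33.1%. Matches of different motifs can share bases, and a match describes letters, not binding. The following 4 STAT matches, each with 9 flanking bases, lie inside member peaks described further on: the Socs3 promoter (chr11:117969503-117969529), Jak1 upstream (chr4:101284124-101284150), Jak1 intron 1 (chr4:101199930-101199956) and Clec16a intron 19 (chr16:10690196-10690222).
Socs3 promoter: ccccctcccTTCTAAGAAggctggttt
Jak1, -18.9 kb: gtggttgtgTTCACGGAAgccagtgat
Jak1, 65.3 kb: cctgcatggTTCCCTGAAcactcagta
Socs1, 95.4 kb: ctgctctgaTTCCCAGAAgaccttgcg

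Most member peaks differed among the 4 groups. By a moderated F test (limma on log2 of the deposited signal plus 1, Benjamini-Hochberg over 38493 peaks, threshold 0.05), 81 of 102 members passed, where 66.0% of all peaks did. Distal sites carried the differences: 77 of 94 distal members passed (73.1% of all distal peaks), against 4 of 8 promoters (51.7% of all promoter peaks). The highest group mean exceeded the lowest by a median of 1.25-fold at member promoters and 2.18-fold at distal members, close to the 1.34-fold and 2.22-fold of all peaks of those kinds.

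**Figure D1:**
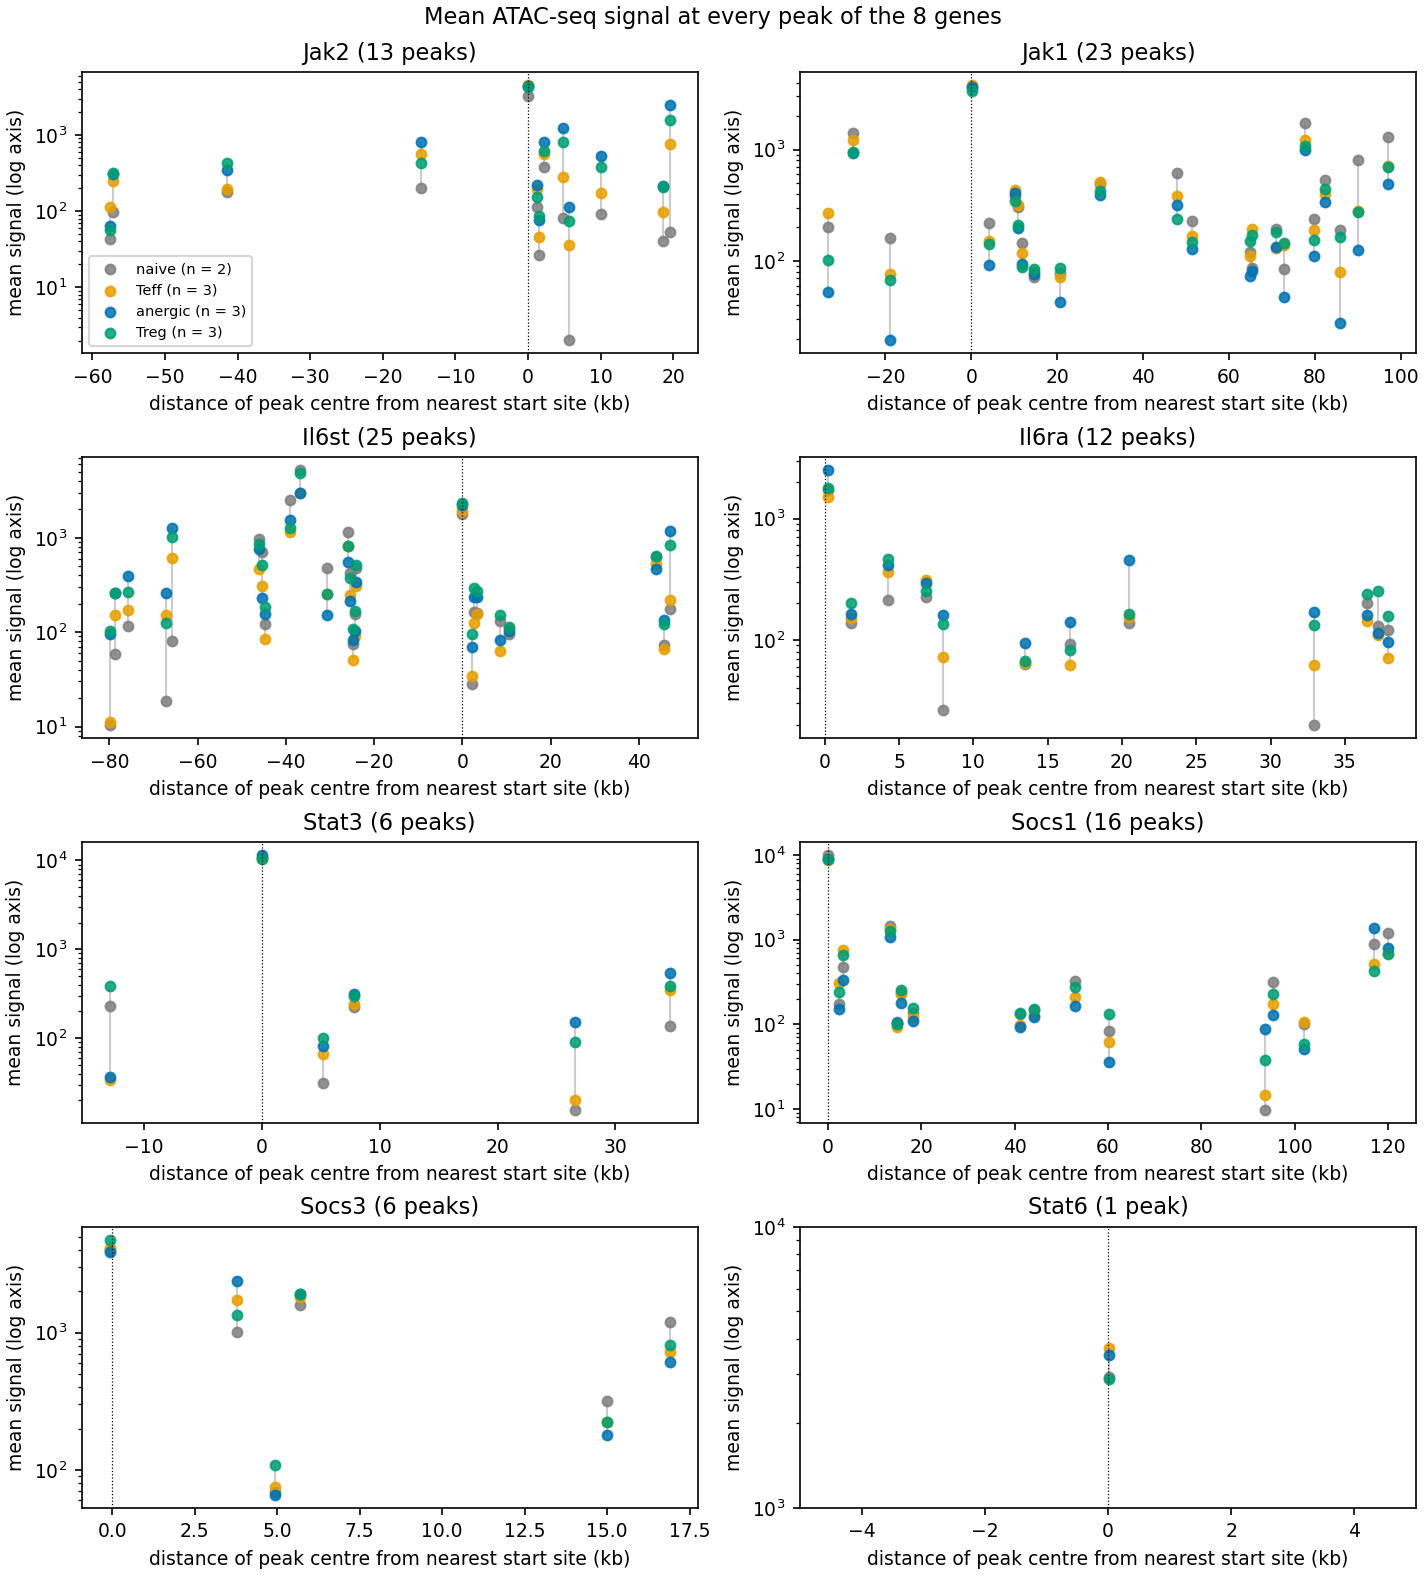
Mean deposited signal (log axis) of every member peak against the distance of its centre from the nearest start site in kb, 1 panel per gene and 1 colour per group (naive n = 2, others n = 3); grey lines join the group means of a peak. Promoter peaks at 0 kb stand close together in all groups, whereas distal peaks of Jak2 open above their naive level and many of Jak1 fall to their lowest level in anergic cells.

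In anergic against Teff cells, 31 members were higher and 18 lower, where 15.9% and 16.8% of all peaks were. Treg against Teff cells gave 33 higher and 7 lower (14.4% and 18.2% of all peaks). In anergic against Treg cells, 14 were higher and 32 lower (19.4% and 14.8%). Scaled to the total of reads in peaks, the share of higher calls over all peaks went from 44.2% to 58% for Treg against Teff and from 56.8% to 41.4% for anergic against Treg. Members then gave 39 higher and 3 lower, and 8 higher and 38 lower. The median over all peaks moved from -0.02 to 0.07 and from 0.04 to -0.08 (log2), beside member medians of 0.26 and -0.21 on the deposited scale.

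Against naive cells, anergic cells had 33 members higher and 35 lower (25.3% and 25.1% of all peaks). Teff cells had 26 higher and 25 lower (22.7% and 17.4%), a total of 51 that fell to 33 without naive replicate 1. Treg cells had 33 higher and 17 lower (22.3% and 23.0%), which became 41 and 12 when scaled to the total of reads in peaks, where the median of all peaks moved from -0.04 to 0.11 and the share of higher calls over all peaks from 49.1% to 63.5%. The 6 comparisons share libraries and are given side by side only.

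**Figure D2:**
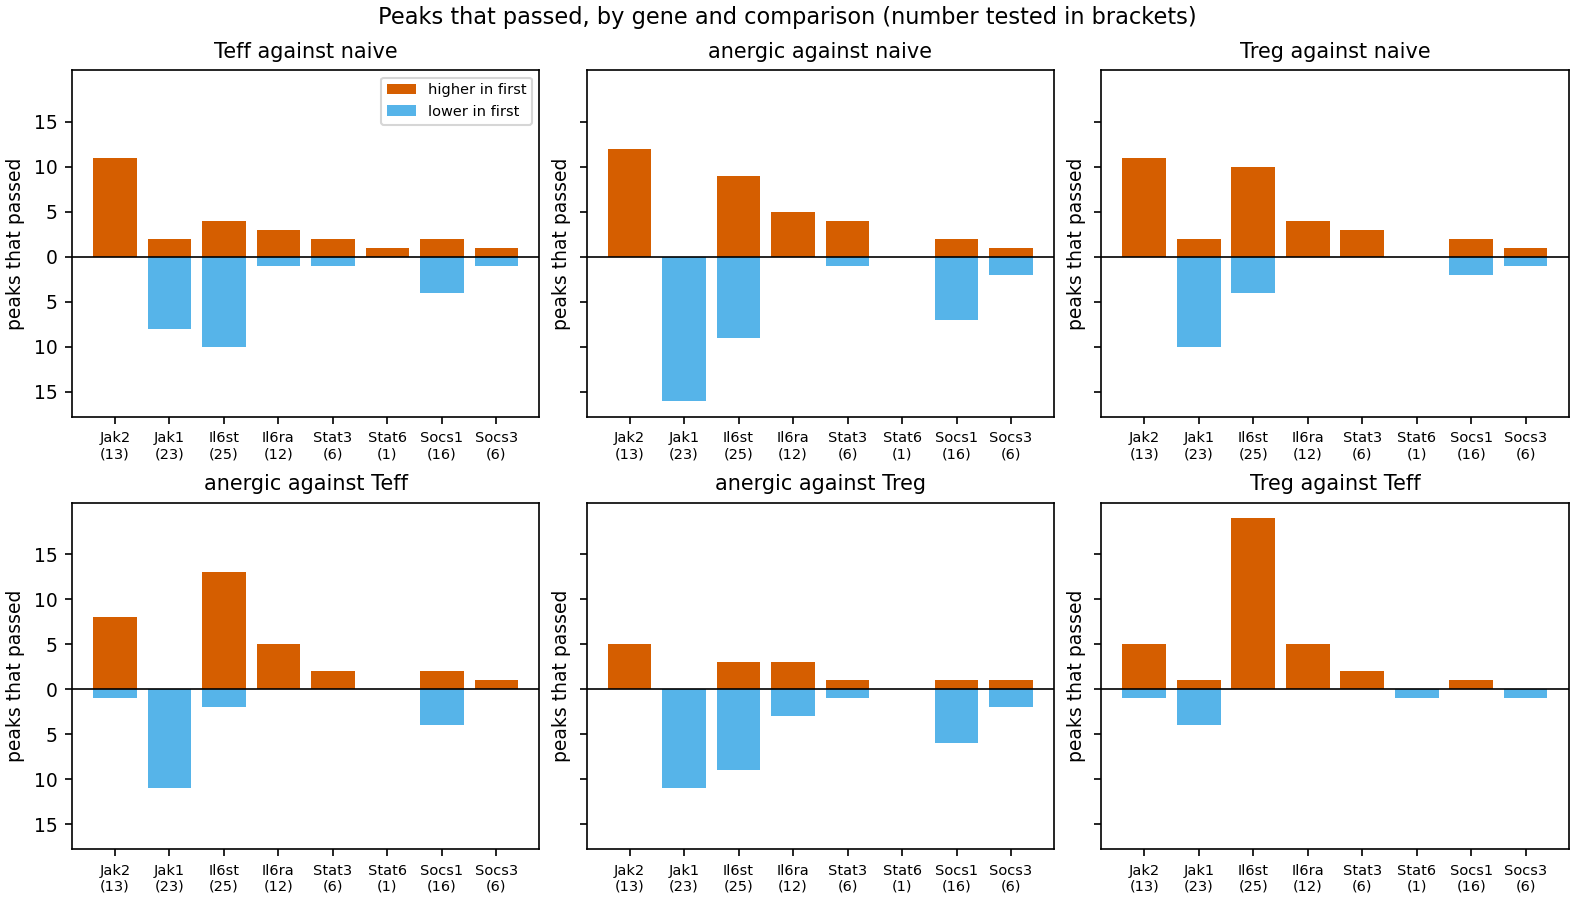
Number of member peaks of each gene that passed the test (vertical axis; above 0 higher, below 0 lower in the group named first) in each of the 6 comparisons, with the number tested in brackets. Jak2 bars point up in every comparison with naive cells, and Jak1 bars point down in every comparison of anergic cells.

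At Il6ra, the chain that binds interleukin-6, the promoter was highest in anergic cells. At the Il6ra promoter (chr3:89912154-89913780, over coding exon 1), signal was 1560 and 1870 in the naive libraries, 1190, 1700 and 1650 in Teff, 2040, 2760 and 2750 in anergic and 1650, 1960 and 1780 in Treg. The 3 anergic libraries lay above all others. The rise over Teff was 0.74 ± 0.14 (log2 fold change ± SE here and throughout, adjusted p = 0.000258). The rises over Treg (0.48 ± 0.14, adjusted p = 0.0112) and naive (0.54 ± 0.16, adjusted p = 0.00592) rest on single libraries. The first gave adjusted p = 0.056, 0.054 and 0.0597 without Treg replicate 1, anergic replicate 2 and anergic replicate 3, and the second 0.102 without naive replicate 1.

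Among the 11 distal Il6ra peaks, an intron 1 site at 20.5 kb (chr3:89892472-89892991) opened in anergic cells. Its signal was 134 and 141 in naive, 130, 163 and 168 in Teff, 501, 500 and 355 in anergic, and 139, 221 and 132 in Treg libraries. No anergic library overlapped another group, whereas the other 3 groups overlapped one another. Anergic cells exceeded Teff by 1.54 ± 0.22 (adjusted p = 8.27e-06), Treg by 1.48 ± 0.22 (adjusted p = 1.96e-05) and naive by 1.69 ± 0.24 (adjusted p = 3.75e-06).

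The intron 6 peak at 32.9 kb, printed above (chr3:89880124-89880410), was a weak site that was nearly closed in naive cells. Signal was 13.8 and 25.5 in naive, 38.8, 66.1 and 80 in Teff, 187, 168 and 155 in anergic and 116, 140 and 139 in Treg libraries. No groups overlapped, and the means rose from naive through Teff and Treg to anergic cells. Anergic exceeded naive cells by 3.11 ± 0.34 (adjusted p = 8.39e-08) and Treg exceeded naive cells by 2.74 ± 0.34 (adjusted p = 9.44e-07). Anergic and Treg cells were not separated by the test (0.37, 95% interval -0.23 to 0.96, adjusted p = 0.371). Treg exceeded Teff by 1.14 ± 0.30 (adjusted p = 0.00591), and by 0.85 (adjusted p = 0.0502) without Teff replicate 1. Scaled to the total of reads in peaks, where the added 1 weighs more on so weak a peak, the rise over naive cells became 1.9 for anergic and 1.71 for Treg cells, and both passed.

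Another Il6ra site stood highest in Treg cells. In intron 9, at 37.2 kb (chr3:89875766-89876135), Treg libraries had 184, 300 and 271, above 118 and 145 in naive, 65.8, 122 and 142 in Teff and 129, 120 and 90.7 in anergic libraries. Treg cells exceeded Teff by 1.23 ± 0.27 (adjusted p = 0.00131), and anergic cells lay 1.13 below Treg (-1.13 ± 0.27, adjusted p = 0.00275). The same gene thus held a site highest in anergic cells and a site highest in Treg cells. Of all 12 Il6ra peaks, 5 were higher and none lower in anergic than in Teff cells, and the same counts, 5 and none, held for Treg against Teff. Between anergic and Treg cells 3 were higher and 3 lower, and the sums over distal peaks overlapped (2100, 2620 and 2040 in anergic, 1860, 2520 and 2050 in Treg libraries).

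Il6st, which encodes gp130, had 25 peaks, as many as or more than all but 0.204% of the 14241 genes with a peak. By gaps in their position they fell into 4 stretches, a grouping made after the values were seen, and the stretches followed different courses. Far upstream (-79.9 to -65.7 kb), the signal summed over 5 peaks was 288 and 279 in naive, 1090, 1070 and 1120 in Teff, 2270, 2350 and 2180 in anergic, and 1600, 1710 and 1990 in Treg libraries. All 5 were higher in anergic and in Treg than in naive cells, and all 5 were higher in anergic than in Teff.

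Nearer the gene (-46.2 to -24.0 kb), 11 peaks behaved differently. Their sum was 12900 and 11700 in naive, 7060, 6720 and 6560 in Teff, 6720, 7400 and 7220 in anergic and 10500, 8950 and 10500 in Treg libraries. Of these peaks 9 were lower in Teff than in naive cells, 7 in anergic than in naive and 4 in Treg than in naive, with none higher in any of the 3. Of the 4 in Treg, those at -45.3 and -25.9 kb were lost under edgeR and when scaled to the total of reads in peaks, which left 2, and without naive replicate 1, Treg replicate 1 or Treg replicate 2. Among Teff, anergic and Treg cells, 8 of the 11 were higher in Treg than in Teff, and 7 were lower in anergic than in Treg.

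The far-upstream site at -65.7 kb (chr13:112398024-112398756) had the smallest F test p of the gene. Signal was 91.8 and 68.9 in naive, 648, 545 and 633 in Teff, 1190, 1350 and 1230 in anergic and 920, 1020 and 1090 in Treg libraries, with no overlap between groups. It rose over naive cells by 2.92 ± 0.16 in Teff (adjusted p = 4.99e-12), 3.96 ± 0.16 in anergic (adjusted p = 1.08e-14) and 3.64 ± 0.16 in Treg cells (adjusted p = 1.31e-13). Anergic and Treg cells differed by 0.32 (interval 0.04 to 0.60, adjusted p = 0.0841, and 0.0473 by DESeq2 on the recovered reads). Its next nearest start, that of Ankrd55, is 110 kb away.

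At -45.3 kb (chr13:112418564-112418992), naive cells were highest: signal was 778 and 629 in naive, 355, 269 and 303 in Teff, 267, 206 and 223 in anergic, and 548, 428 and 558 in Treg libraries. Anergic cells were lower than naive by -1.60 ± 0.19 (adjusted p = 2.41e-07) and lower than Treg by -1.14 ± 0.17 (adjusted p = 2.25e-05). Downstream of the gene, at 47.0 kb, group means were 174 in naive and 217 in Teff, against 1190 in anergic and 847 in Treg cells. Anergic and Treg cells exceeded Teff there by 2.44 ± 0.17 (adjusted p = 9.51e-10) and 1.93 ± 0.17 (adjusted p = 2.32e-08), while Teff and naive cells differed by 0.33 ± 0.19 (adjusted p = 0.18). This peak lies 69.6 kb from the start of Il31ra, another receptor of the family.

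**Figure D3:**
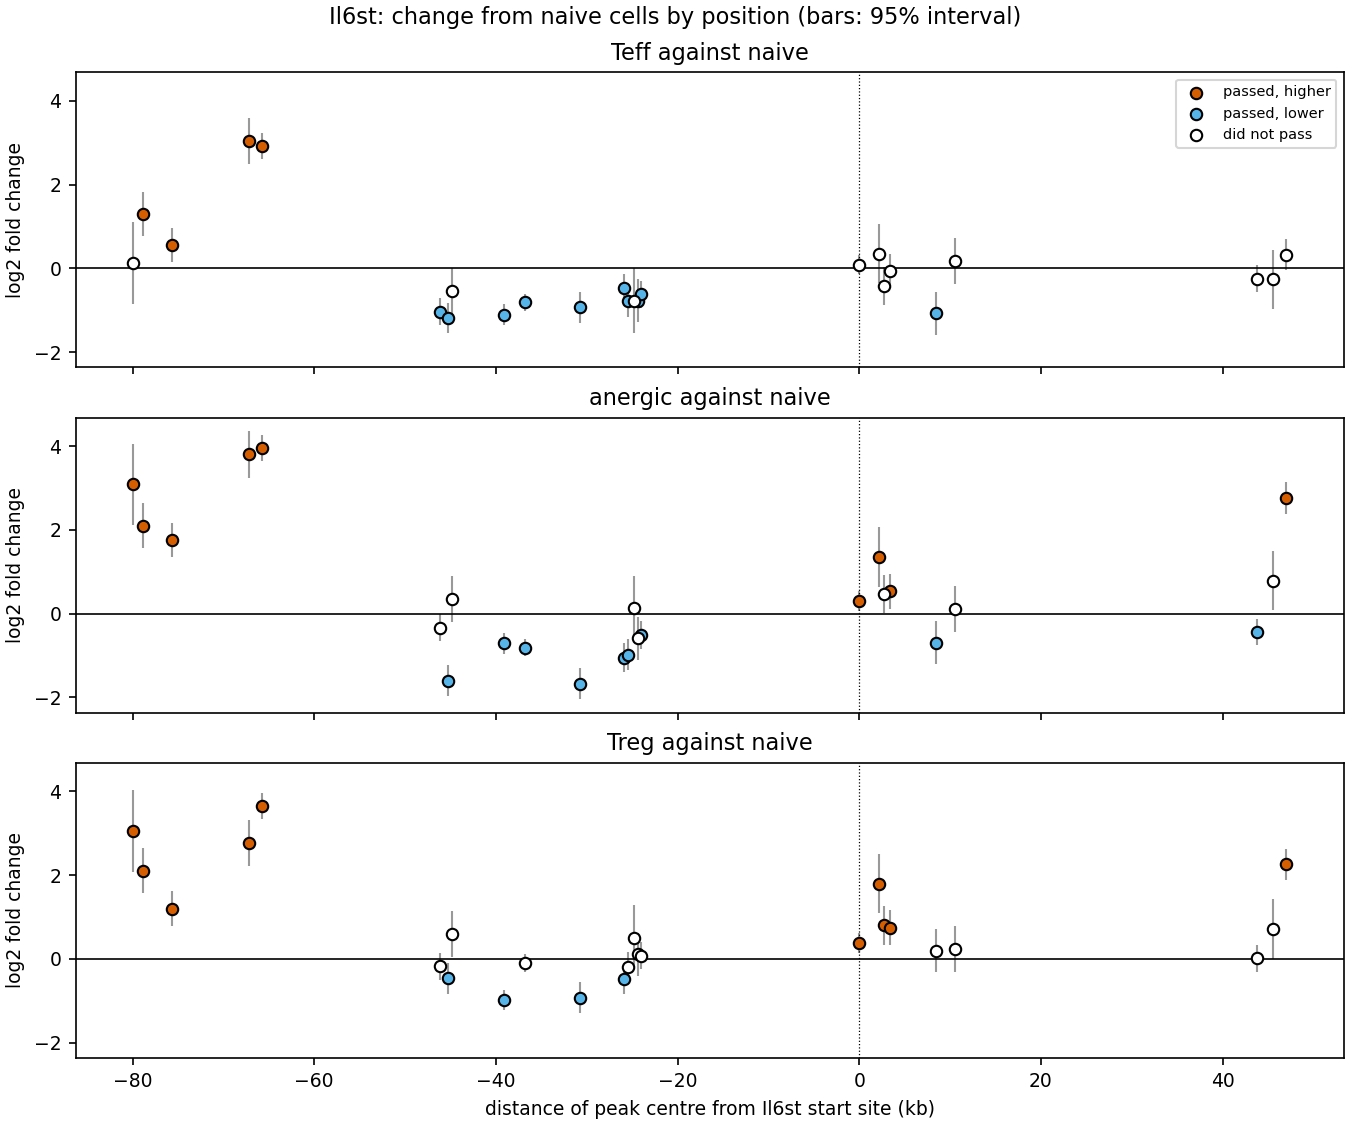
Log2 fold change from naive cells (vertical axis, bars of the 95% interval) of each Il6st peak against its distance from the start site in kb, for Teff, anergic and Treg cells; filled points passed the test. Points left of -60 kb lie above 0 in all 3 panels, and the points between -50 and -20 kb lie mostly below 0, least so in Treg cells.

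Between Treg and Teff cells, 19 of the 25 Il6st peaks were higher in Treg and none was lower. Its summed signal over all 25 peaks was 16300 and 15400 in naive, 11300, 11000 and 10900 in Teff, 13900, 14300 and 14100 in anergic and 16900, 15100 and 17800 in Treg libraries. The lowest sums were those of the 3 Teff libraries. The promoter (chr13:112463381-112464648) took little part. Its means were 1790 ± 290 in naive (SD, n = 2), 1900 ± 67.0 in Teff, 2210 ± 149 in anergic and 2320 ± 139 in Treg cells (n = 3 each). Treg against Teff (0.29, adjusted p = 0.0427) was lost without any 1 Teff library or without Treg replicate 1 or 3 (adjusted p = 0.073 to 0.129). Treg against naive (0.38, adjusted p = 0.0124) became 0.21 (adjusted p = 0.289) without naive replicate 1. Anergic against naive (0.31, adjusted p = 0.0358) became 0.14 (adjusted p = 0.491) without the same library and 0.47 (adjusted p = 0.0118) without naive replicate 2, and was lost without anergic replicate 2 or 3 (adjusted p = 0.0506 and 0.12) or when only the groups compared were fitted (0.0703).

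The kinases diverged. Jak2 was least open in naive cells: each of its 13 peaks had its lowest group mean in naive cells, each passed the F test, and 11, 12 and 11 of them were higher than naive in Teff, anergic and Treg cells, with none lower. Over the 12 distal peaks, summed signal was 1350 and 1270 in naive, 3340, 3440 and 2990 in Teff, 6790, 7750 and 7050 in anergic and 4680, 5010 and 5660 in Treg libraries. The 4 groups did not overlap.

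The intron 2 peak at 19.5 kb (chr19:29270909-29271622), whose centre is printed above, differed most between groups of the printed sites. Signal was 53.6 and 51.9 in naive, 887, 753 and 632 in Teff, 2360, 2670 and 2400 in anergic, and 1540, 1380 and 1770 in Treg libraries. Each group stood clear of the next, and the anergic mean was 47.0 times the naive mean. The rise over naive cells was 3.81 ± 0.15 in Teff (adjusted p = 9.5e-14), 5.53 ± 0.15 in anergic (adjusted p = 7.52e-17) and 4.85 ± 0.15 in Treg cells (adjusted p = 1.74e-15). Anergic cells exceeded Teff by 1.72 ± 0.14 (adjusted p = 6.2e-09) and Treg by 0.67 ± 0.14 (adjusted p = 0.000733).

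Other Jak2 sites shared this course to differing degrees. In intron 1 at 4.81 kb, signal was 73.1 and 89 in naive, 215, 482 and 133 in Teff, 1090, 1390 and 1210 in anergic and 591, 890 and 946 in Treg libraries. The Teff libraries were spread more than 3-fold, and anergic cells exceeded them by 2.35 ± 0.29 (adjusted p = 1.68e-06). A peak at 5.59 kb held 4 reads and 1 read in the naive libraries and group means of 36.2, 112 and 75.0 in Teff, anergic and Treg cells, too few naive reads for a fold. Upstream, at -14.7 kb, anergic cells (856, 784 and 792) stood above Teff (659, 548 and 498), which in turn stood above naive cells (169 and 238), with Treg libraries at 380, 385 and 537. Only the site at -57.6 kb was lower in anergic than in Teff cells (-0.83 ± 0.32, adjusted p = 0.0463, and 0.24 without Teff replicate 1). Leaving out Teff replicate 2, Treg replicate 1, anergic replicate 1 or anergic replicate 3 also ended that call (adjusted p = 0.105, 0.0519, 0.127 and 0.134).

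The Jak2 promoter (chr19:29250959-29252682, over the 5′ UTR) was 2910 and 3610 in naive libraries and between 3780 and 4820 in the other 9. Its rises over naive cells of 0.48 ± 0.11 in Teff, 0.42 ± 0.11 in anergic and 0.39 ± 0.11 in Treg cells passed (adjusted p = 0.00143, 0.00263 and 0.00653). None of the 3 passed without naive replicate 1, when they were 0.32, 0.27 and 0.23 (adjusted p = 0.0843, 0.126 and 0.207). Among Teff, anergic and Treg cells no difference passed, with an interval for anergic against Teff of -0.25 to 0.14.

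**Figure D4:**
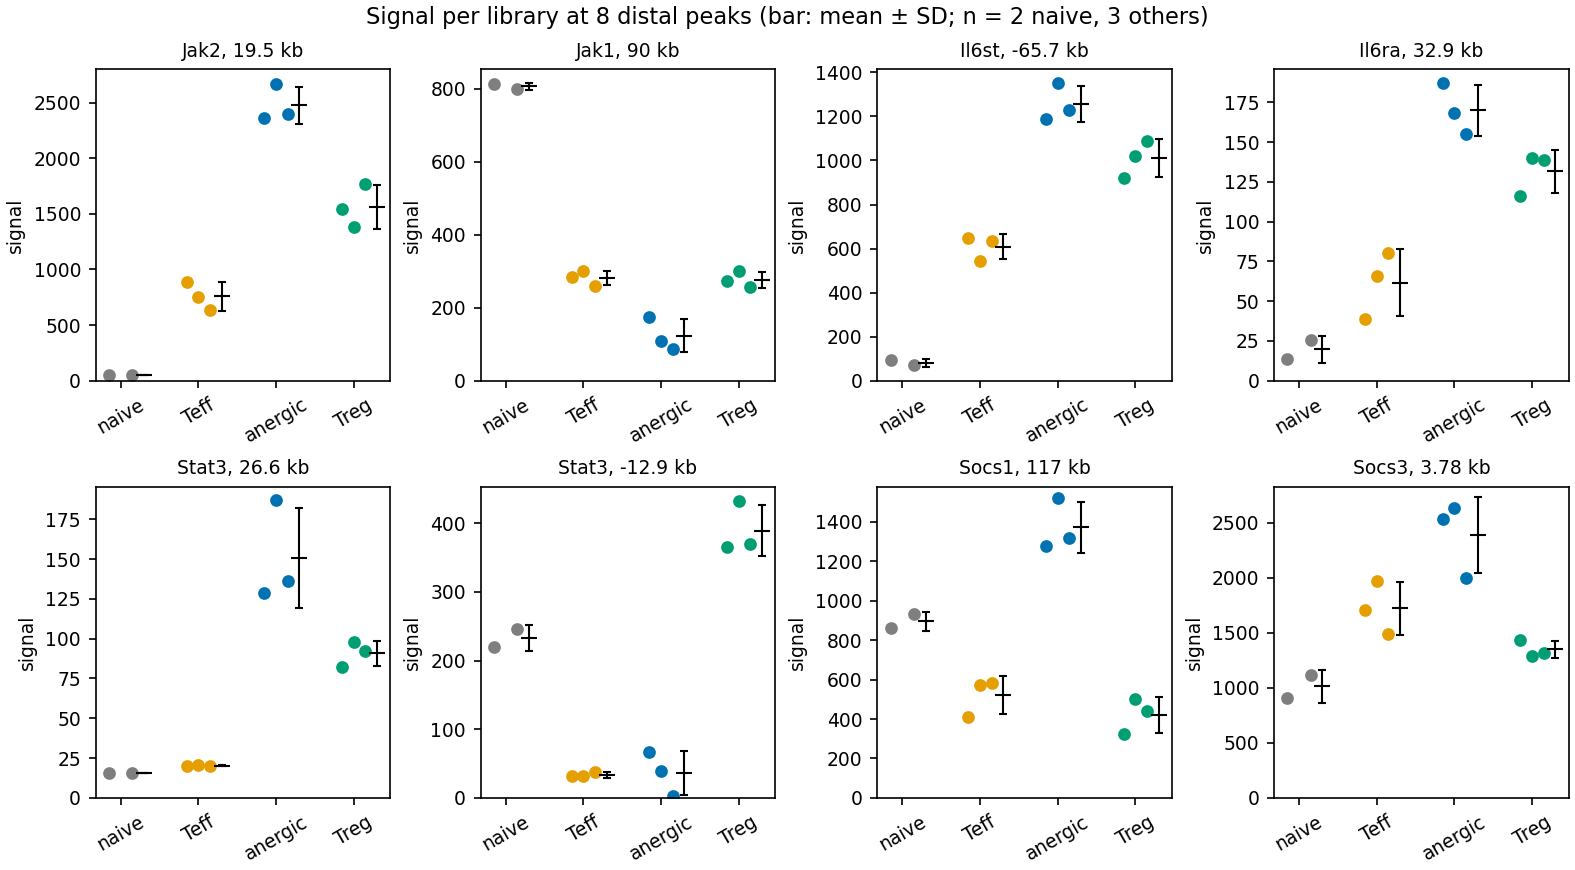
Deposited signal (vertical axis, from 0) of each library at 8 distal peaks, by group; points are libraries, dashes and bars the mean and SD (n = 2 naive, 3 in each other group). The Jak2 peak at 19.5 kb lies between 2360 and 2670 in anergic libraries and at 53.6 and 51.9 in naive ones, the Jak1 peak at 90.0 kb is highest in naive libraries, and the Stat3 peak at -12.9 kb is high in naive and Treg libraries only.

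Jak1 showed the opposite course. Of its 23 peaks, 17 had their lowest group mean in anergic cells; 16 were lower in anergic than in naive cells, 11 than in Teff and 11 than in Treg, and none was higher in any of these comparisons. Signal summed over its 22 distal peaks was 10100 and 9080 in naive, 7710, 7190 and 6810 in Teff, 5460, 5400 and 4680 in anergic and 6630, 6440 and 5990 in Treg libraries. Every anergic library lay below every library of the other groups.

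The intron 8 peak at 90.0 kb (chr4:101174900-101175632), printed above, was lowest in anergic and highest in naive cells. Its signal was 814 and 800 in naive, 283, 300 and 260 in Teff, 174, 110 and 87.3 in anergic, and 274, 300 and 256 in Treg libraries. It was lower than naive in the other 3 groups, by -1.52 ± 0.23 in Teff (adjusted p = 1.21e-05), -2.76 ± 0.23 in anergic (adjusted p = 1.01e-09) and -1.54 ± 0.23 in Treg cells (adjusted p = 8.88e-06). Anergic cells were below Teff by a further -1.23 ± 0.20 (adjusted p = 5.06e-05). Teff and Treg libraries overlapped.

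Sites upstream of Jak1 closed in anergic cells in other ways. At -33.3 kb (chr4:101298408-101298793), Teff libraries had 294, 311 and 212 and naive libraries 210 and 195, against 46.4, 62.2 and 48.4 in anergic and 109, 119 and 78.5 in Treg. Anergic cells were lower than Teff by -2.35 ± 0.24 (adjusted p = 1.24e-07) and lower than Treg by -0.94 ± 0.24 (adjusted p = 0.00393). At -18.9 kb, which holds 1 of the STAT matches printed above, signal was 132 and 191 in naive, 49.8, 72.7 and 108 in Teff, 23.2, 13.2 and 21.5 in anergic and 68.7, 72.4 and 60.8 in Treg libraries. The difference of anergic from Teff was -1.91 ± 0.34 (adjusted p = 0.000148).

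The other Jak1 site with a printed STAT match, in intron 1 at 65.3 kb, was low in naive and anergic cells. Signal was 111 and 61.9 in naive, 181, 186 and 212 in Teff, 123, 56.4 and 63.1 in anergic and 199, 164 and 151 in Treg libraries. Anergic cells were below Teff by -1.33 ± 0.28 (adjusted p = 0.000704) and below Treg by -1.15 ± 0.28 (adjusted p = 0.00299), and they overlapped naive cells. Teff and Treg exceeded naive by 1.20 ± 0.31 and 1.03 ± 0.31 (adjusted p = 0.00381 and 0.0104), but by 0.78 and 0.61 (adjusted p = 0.112 and 0.209) without naive replicate 2.

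An intronic Jak1 site was nearly closed in anergic cells and open in Treg cells. In intron 7 at 85.9 kb, signal was 259 and 116 in naive, 108, 81.8 and 50 in Teff, 28.2, 25.3 and 29.6 in anergic and 186, 160 and 148 in Treg libraries. Anergic cells lay below Treg by -2.53 ± 0.32 (adjusted p = 3.38e-06). Treg exceeded Teff by 1.09 ± 0.32 (adjusted p = 0.0109, and 0.0622 without Teff replicate 3). The Jak1 promoter (chr4:101264351-101265787) did not differ by the F test (adjusted p = 0.36): its mean signal was 3650 ± 214 in naive (SD, n = 2), 3800 ± 183 in Teff, 3620 ± 144 in anergic and 3360 ± 386 in Treg cells (n = 3 each). The interval for anergic against Teff was -0.26 to 0.12.

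Stat3 had a promoter among the most open of all (chr11:100938678-100940328, over the 5′ UTR): signal per kb lay at percentile 98.9 of promoter peaks. It varied least of the 8, 1.11-fold between the highest and lowest group mean, with libraries from 9360 to 11700 and an F test adjusted p of 0.336. For anergic against Teff the interval was -0.04 to 0.29. Anergic against Treg was 0.16 (adjusted p = 0.149), and 0.23 (adjusted p = 0.0492) without Treg replicate 3.

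The Stat3 site printed above separated Treg from Teff and anergic cells. At -12.9 kb (chr11:100952237-100952588), signal was 219 and 246 in naive, 31.2, 31.4 and 38.3 in Teff, 66.3, 39 and 3.36 in anergic and 366, 432 and 370 in Treg libraries. Naive and Treg cells held this site open, and Teff and anergic cells did not. Treg exceeded Teff by 3.50 ± 0.58 (adjusted p = 7.65e-05), and Teff lay below naive by -2.76 ± 0.65 (adjusted p = 0.00164). Treg and naive libraries did not overlap, yet the test did not separate them (0.74, interval -0.53 to 2.01, adjusted p = 0.372). The anergic libraries held 40, 74 and 5 reads there, and the fall from naive to anergic cells was -3.36 ± 0.65 (adjusted p = 0.000148) but -2.17 (adjusted p = 4.56e-06) without anergic replicate 3. Anergic against Treg cells gave -4.10 ± 0.58, and -2.91 without the same library. Scaled to the total of reads in peaks, the fall from naive was -1.96 and still passed. The next nearest start, of Cavin1, is 18.2 kb away.

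In Stat3 intron 1 at 26.6 kb (chr11:100912776-100913050), signal was 15.4 and 15.5 in naive, 20.1, 20.6 and 20 in Teff, 129, 187 and 136 in anergic and 82.2, 97.9 and 92.4 in Treg libraries. The site was open in anergic and Treg cells and nearly closed in the others, with 12 reads in the shallowest case. Anergic exceeded Teff by 2.82 ± 0.32 (adjusted p = 5.09e-07) and Treg exceeded Teff by 2.11 ± 0.32 (adjusted p = 2.49e-05), and these became 1.7 and 1.25 when scaled to the total of reads in peaks and still passed. For anergic against Treg the difference was 0.71 (interval 0.09 to 1.33, adjusted p = 0.0881, and 0.0416 by DESeq2).

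Another Stat3 site, over coding exon 8 at 34.6 kb, had 136 and 139 in naive, 374, 355 and 315 in Teff, 544, 562 and 512 in anergic, and 391, 445 and 317 in Treg libraries. Its group means stood in the order of the Jak2 distal sums, but Teff and Treg libraries overlapped. The other 3 groups were above naive, by 1.33 ± 0.18 in Teff, 1.97 ± 0.18 in anergic and 1.47 ± 0.18 in Treg cells (adjusted p = 3.03e-06, 4.94e-09 and 7.46e-07). Anergic also exceeded Teff (0.63 ± 0.16, adjusted p = 0.00341). The call of anergic above Treg was lost without Treg replicate 3 or anergic replicate 2 (adjusted p = 0.102 and 0.0571). It was also lost when scaled to the total of reads in peaks (0.0911).

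Stat6 had 1 peak, over its promoter and 5′ UTR (chr10:127641836-127644169). Signal was 2610 and 3210 in naive, 3400, 3700 and 4010 in Teff, 2780, 3770 and 3920 in anergic and 2500, 3030 and 3120 in Treg libraries. Teff libraries lay above naive and Treg ones, and anergic libraries overlapped every group. Treg were below Teff cells by -0.36 ± 0.13 (adjusted p = 0.0298) and Teff above naive by 0.35 ± 0.14 (adjusted p = 0.0493). The first call was lost without Teff replicate 2, Teff replicate 3 or Treg replicate 1 (adjusted p = 0.0768, 0.105 and 0.163) and under edgeR and under scaling to total reads in peaks (0.0597 and 0.0871). The second was 0.20 (adjusted p = 0.423) without naive replicate 1, and was lost without Teff replicate 2 or 3 and without Treg replicate 2 or 3 too (adjusted p = 0.0937, 0.15, 0.0521 and 0.0522). The second call also ended with no filter on low values (0.35, adjusted p = 0.0502). Anergic against Treg and naive cells (0.27 and 0.26, adjusted p = 0.105 and 0.136) became 0.42 and 0.41 (adjusted p = 0.00938 and 0.0122) without anergic replicate 1.

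**Figure D5:**
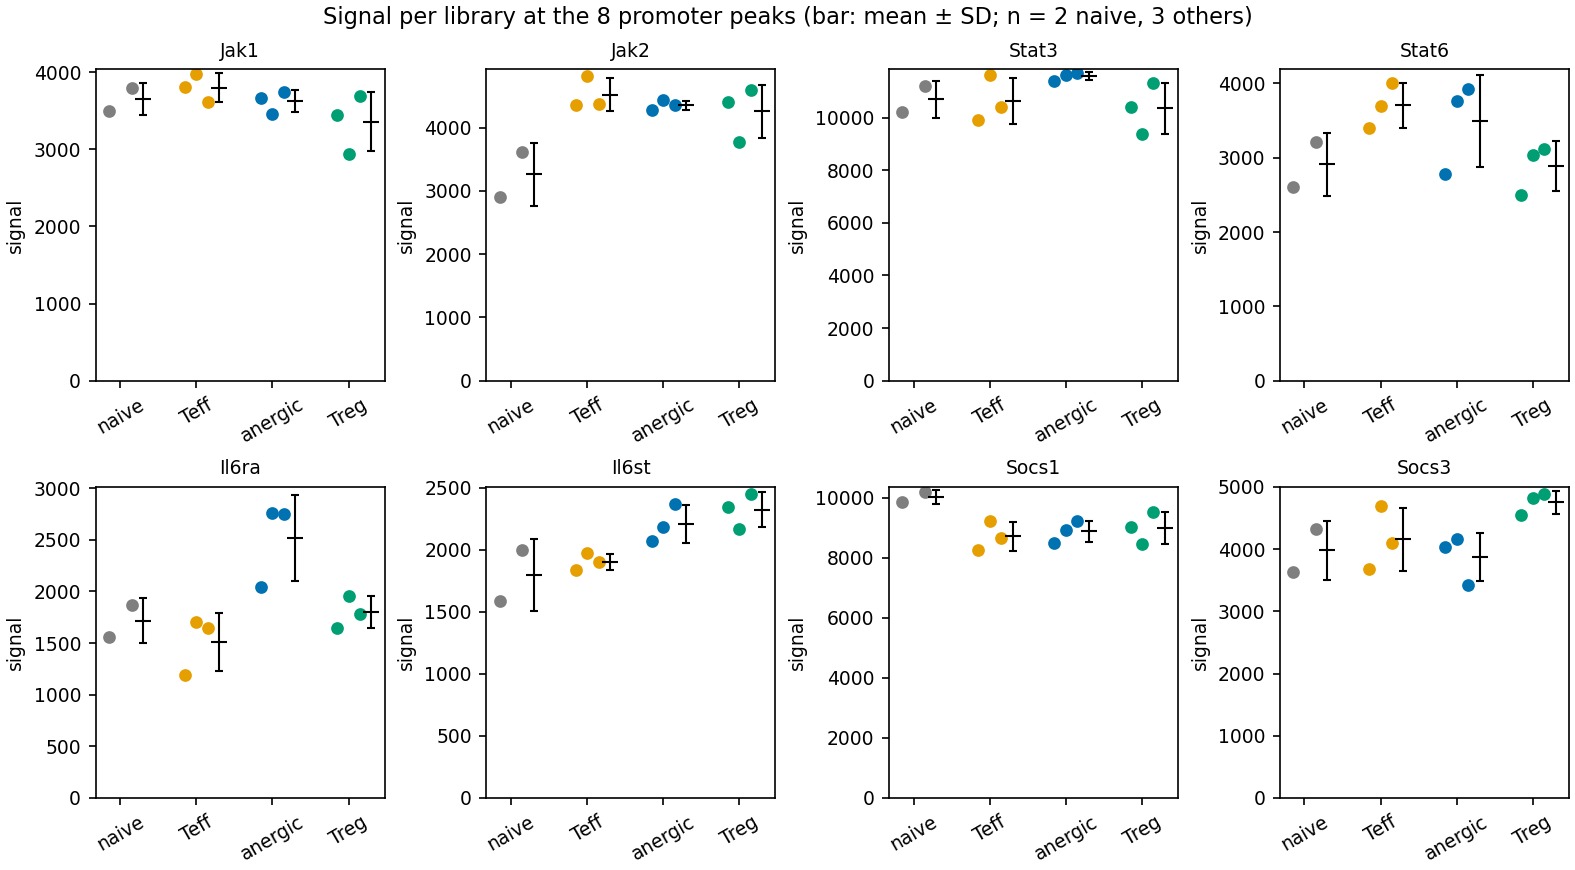
Deposited signal (vertical axis, from 0) of each library at the promoter peak of each gene, by group; points are libraries, dashes and bars the mean and SD (n = 2 naive, 3 in each other group). Groups overlap at most promoters, and the anergic libraries stand above the others at Il6ra (2040 to 2760).

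The inhibitor promoters did not pass the F test. At the Socs1 promoter, mean signal was 10000 ± 243 in naive (SD, n = 2), 8700 ± 500 in Teff, 8870 ± 356 in anergic and 9000 ± 530 in Treg cells (n = 3 each), with an F test adjusted p of 0.175. The interval for anergic against Teff was -0.13 to 0.18. Teff against naive was -0.21 (adjusted p = 0.067, and 0.0294 and 0.0485 without Treg replicates 2 and 3), and anergic against naive -0.18 (adjusted p = 0.0997, and 0.0483 without Treg replicate 2). When only the groups compared were fitted, Teff against naive passed (adjusted p = 0.0295). Scaled to the total of reads in peaks, Treg against Teff (0.15, adjusted p = 0.0328) and anergic against Treg (-0.15, adjusted p = 0.0327) passed.

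A Socs1 site close to the gene was lowest in anergic cells. At 3.19 kb (chr16:10781918-10782776), signal was 426 and 537 in naive, 729, 780 and 747 in Teff, 323, 333 and 334 in anergic and 678, 653 and 615 in Treg libraries. Anergic libraries lay under all others, below Teff by -1.19 ± 0.13 (adjusted p = 5.2e-07) and below Treg by -0.97 ± 0.13 (adjusted p = 9.92e-06). Its next nearest start, of Tnp2, is 6.31 kb away.

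The far peak at 117 kb (chr16:10668421-10669504), printed above, lies inside Clec16a, as do 9 of the 16 Socs1 peaks. Signal was 862 and 931 in naive, 410, 575 and 582 in Teff, 1280, 1520 and 1320 in anergic, and 323, 500 and 441 in Treg libraries. Anergic cells were above Teff by 1.41 ± 0.16 (adjusted p = 7.09e-07) and above Treg by 1.72 ± 0.16 (adjusted p = 8.78e-08), and these groups did not overlap. Teff and Treg cells lay below naive by -0.80 ± 0.18 (adjusted p = 0.00127) and -1.11 ± 0.18 (adjusted p = 3.58e-05). Anergic cells exceeded naive by 0.61 ± 0.18 (adjusted p = 0.00718), and by 0.56 (adjusted p = 0.0621) without naive replicate 1. Treg against Teff was -0.31 (adjusted p = 0.146), and -0.48 (adjusted p = 0.0377) without Teff replicate 1.

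Most other Socs1 peaks fell or did not pass. In anergic against naive cells 2 of the 16 were higher and 7 lower, and 11 of the 16 had their lowest group mean in anergic cells. In Clec16a intron 19, at 95.4 kb, where a STAT match is printed above, means were 320 in naive, 172 in Teff, 128 in anergic and 229 in Treg cells, and anergic cells lay below naive by -1.37 ± 0.25 (adjusted p = 7.33e-05). At 93.7 kb, naive libraries held 2 and 23 reads. There anergic libraries (91.2, 83.8 and 92) stood above those of Teff cells (13.8, 16.5 and 13.3) by 2.54 ± 0.60 (adjusted p = 0.0021), and by 1.29 when scaled to the total of reads in peaks.

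At Socs3 a site just past the gene was highest in anergic cells. At 3.78 kb (chr11:117965091-117966082), signal was 907 and 1120 in naive, 1710, 1970 and 1490 in Teff, 2540, 2640 and 2000 in anergic and 1440, 1290 and 1320 in Treg libraries. Anergic libraries were the highest, above Teff by 0.47 ± 0.13 (adjusted p = 0.00653), above Treg by 0.81 ± 0.13 (adjusted p = 5.2e-05) and above naive by 1.24 ± 0.14 (adjusted p = 2.29e-07). Treg against Teff (-0.34 ± 0.13, adjusted p = 0.0461) was lost without Teff replicate 1, Teff replicate 2 or any 1 Treg library (adjusted p = 0.0553 to 0.243), under edgeR (0.0827) and when scaled to the total of reads in peaks (0.139).

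At 16.9 kb (chr11:117952047-117952914) naive cells were highest. Signal was 1220 and 1170 in naive, 737, 787 and 635 in Teff, 642, 693 and 500 in anergic and 841, 854 and 752 in Treg libraries. Teff and anergic cells fell from naive by -0.73 ± 0.15 (adjusted p = 0.000549) and -0.98 ± 0.15 (adjusted p = 1.29e-05). The promoter, with the STAT match printed above, did not pass the F test (adjusted p = 0.0681). Its means were 3980 ± 480 in naive (SD, n = 2), 4160 ± 511 in Teff, 3870 ± 391 in anergic and 4750 ± 179 in Treg cells (n = 3 each). Anergic lay below Treg by -0.30 ± 0.10 (adjusted p = 0.0307), and not without anergic replicate 3, Treg replicate 2 or Treg replicate 3 (adjusted p = 0.17, 0.0657 and 0.0782). Treg against naive was 0.26 (adjusted p = 0.0756), and it passed under edgeR (0.0225), DESeq2 (0.0382), without naive replicate 2 (0.0479) and when scaled to the total of reads in peaks (0.42, adjusted p = 0.00214). With that scaling Treg against Teff passed too (0.30, adjusted p = 0.0154).

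Peaks of other genes followed the leading peaks closely. Over the 11 libraries, the Jak2 intron 2 peak correlated with peaks nearest to Reps1 (r = 0.997), Myo3b (r = 0.996) and Inpp5f (r = 0.995), and the Il6st peak at -65.7 kb with peaks nearest to Gpr107 (r = 0.997), Impa2 (r = 0.996) and Inpp4b (r = 0.995). For the Stat3 intron 1 peak the closest were Impa2 (r = 0.988), Cwc27 (r = 0.983) and Arrdc4 (r = 0.982). These values were picked as the highest of all peaks, the 11 points share 4 groups, and no test was made.

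The wider pathway was read from lists chosen by function. Among 75 peaks of 15 other receptors that signal through these kinases and STATs, 3 were higher and 33 lower in anergic than in Teff cells, and 6 were higher and 37 lower in anergic than in Treg. Over all peaks, 15.9% were higher and 16.8% lower in the first comparison, and 19.4% and 14.8% in the second. The list median was -0.47 and -0.50 (log2) in these comparisons, beside 0 and 0.04 over all peaks. Cntfr, Ifnar2, Il10ra, Il11ra1, Il27ra, Il2rg and Il31ra had no peak lower in either, and the Il11ra1 peak was higher in anergic than in Teff cells. Ifnar1 and Ifngr2 had none lower in the first comparison. Of the lower peaks, Il21r held 13 of the 33 and 17 of the 37. Ifngr1 held 6 and 6, Il4ra 5 and 6, and Il12rb2 5 and 1. Examples were the peak at -10.2 kb of Il4ra, the interleukin-4 receptor chain, with a mean of 9.68 in anergic, 71.3 in Teff and 105 in Treg cells, and the one at -10.1 kb of Il21r, the interleukin-21 receptor, with 31.9 in anergic and 260 in Teff cells (-2.98 ± 0.26, adjusted p = 2.07e-08). A site of Il21r at 18.5 kb went the other way, from 107 in Teff to 465 in anergic cells (2.21 ± 0.28, adjusted p = 2.84e-06). Lifr, Osmr, Il13ra1 and Il23r had no peak.

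Peaks of most ligand genes were higher than in naive cells: of 56 peaks of 8 genes, 39 were higher and 1 lower in Teff than in naive cells, 43 and 5 in anergic, and 36 and 3 in Treg, with medians of 2.27, 2.86 and 1.46 (log2) beside -0.03, -0.04 and -0.04 over all peaks, of which 22.7%, 25.3% and 22.3% were higher. The 4 peaks of Osm, which encodes oncostatin M, were an exception, with none higher in any of the 3, and neither of the 2 peaks of Il11 was higher in Teff. Between anergic and Treg cells, 31 were higher in anergic and 3 lower (19.4% and 14.8% of all peaks). Lif held 2 of the lower ones and Osm 1, and neither gene had a peak higher in anergic than in Treg cells. The peak of Il10 at 18.8 kb, which encodes an anti-inflammatory cytokine that signals through STAT3, had a mean of 1260 in anergic and 130 in Teff cells (3.25 ± 0.23, adjusted p = 1.35e-09). That of Il13 at 7.14 kb, a STAT6 activating cytokine, had 55.9 in anergic and 514 in Teff cells (-3.20 ± 0.32, adjusted p = 1e-07). No peak was nearest to Il6 itself, nor to Clcf1, Il27 or Ebi3.

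Calls at other inhibitors of the pathway were more often higher than lower against naive cells. Of 58 peaks of 13 genes, 31 were higher and 6 lower in anergic than in naive cells, 23 and 3 in Teff and 24 and 7 in Treg, with medians of 0.69, 0.32 and 0.39 beside -0.04, -0.03 and -0.04 over all peaks. Over all peaks, 25.3%, 22.7% and 22.3% were higher in these comparisons. Pias1, Pias4, Socs6 and Socs7 had no peak higher in any of the 3. A site 11.8 kb into Ptpn11, which encodes the phosphatase SHP-2, had a mean of 1010 in anergic and 96.8 in Treg cells (3.49 ± 0.27, adjusted p = 6.35e-09). The Socs2 promoter had 439 in anergic and 1210 in Treg cells (-1.46 ± 0.14, adjusted p = 1.11e-07). Of 51 peaks of the other kinases and STATs, 14 were higher and 9 lower in anergic than in Teff cells (15.9% and 16.8% of all peaks). Among them, a Stat4 site at 32.4 kb was higher (701 against 155, 2.16 ± 0.27, adjusted p = 1.77e-06). A Stat5b site at 8.69 kb was lower (231 against 704, -1.60 ± 0.19, adjusted p = 7.93e-07).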

How the data were processed

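ATAC-seq libraries of 11 samples in 4 groups were analysed; the RNA-seq that the series describes is not used here. Reads were aligned with Bowtie2 2.3.3.1 and peaks called with Genrich 0.5, per the submitters' processing notes; the design text adds removal of duplicates and adjustment for the transposase, consensus peaks from DiffBind, and build mm10. The table deposited by the authors gives 1 signal value per peak and library. Each deposited signal column was a whole number of reads times a library factor (100.0% of values whole within 0.01), and how the factor was set is not given in the sources used here. No value was 0.

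Members and lists were chosen with earlier results of these data known. Peaks were given to the nearest RefSeq start (45756 NM or NR transcripts) from the peak centre. Coordinates follow the table, whose width column equals end minus start plus 1. limma 3.58.1 (R 4.3.3) with trend was fitted to log2 of the deposited signal plus 1 for all 11 libraries with a term for group alone. After filterByExpr (edgeR 4.0.16), 38493 peaks were tested and 16, none a member, were not, and p-values were adjusted over all of them (Benjamini-Hochberg, threshold 0.05). Intervals are 95% normal intervals from the SE. The fit and the motif search were tested on simulated data. Named peaks are, per gene, the promoter peak, the peak with the smallest F test p, and the largest called rise and fall in each comparison; the Jak2 peak at 5.59 kb and the Il6st peak at 47.0 kb were added after their values were seen. Up to 2 rises and 2 falls per list and comparison could be named, and the text names some of them. Alternatives were a pseudocount of 10, no filter, edgeR and DESeq2 1.42.0 on recovered reads, scaling to total reads in peaks, a replicate block, only the compared groups, predicted transcripts and leaving out each library.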

Additional observations from a re-analysis of the deposited data

How the results depend on the processing

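Of 2430 alternative values for 135 results on named peaks, 2327 stayed on their side of the threshold, 81 lost a call and 22 gained one. No value that passed in the main or the alternative fit changed sign. Sign changes of values that passed in neither were not counted. When predicted transcripts compete for peaks, fewer peaks are members by construction: the members called were 22 for anergic against Teff, 24 for anergic against Treg, 19 for Treg against Teff, 33 for anergic against naive, 25 for Teff against naive, 24 for Treg against naive and 40 for any difference, from 49, 46, 40, 68, 51, 50 and 81. Leaving out 1 library gave 42 to 50, 33 to 47, 30 to 42, 54 to 69, 33 to 51, 35 to 51 and 74 to 82 in the same order. The lowest count for Teff against naive (33) was without naive replicate 1, which leaves naive cells with 1 library assumed to vary like the other groups; the cause of its effect was not tested. With the replicate number as a block the counts were 51, 48, 42, 66, 46, 49 and 83. Deviations of libraries with the same number correlated weakly (r from -0.11 to 0.16 over 15 pairs, 4 of them over 0.1). Even so, 7 of 11 libraries correlated best with a library of their own number. Whether the numbers pair libraries was not tested, and the main fit did not treat them as pairs. The block ended the Il6st promoter call for anergic against naive (0.28, adjusted p = 0.0589) and gave calls at Stat6 for anergic against Treg (0.27, adjusted p = 0.0296) and at the Socs3 promoter for Treg against naive (0.28, adjusted p = 0.0441). Scaling to the total of reads in peaks shrinks changes of weak peaks, since the added 1 then stands for more reads; it and TMM left 2 Jak2 peaks higher in anergic than in Treg cells, from 5. Depth limits the weakest members: 75.7% of member values rest on 100 reads or more, and the lowest on 1.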

Other observations

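Genes known as STAT3 or STAT6 targets in T cells had 102 peaks, from 12 genes. In Teff against naive cells 59 were higher and 3 lower, in anergic 54 and 13, and in Treg 60 and 4, with medians of 0.78, 0.69 and 0.83 (log2) beside -0.03, -0.04 and -0.04 over all peaks (limma, Benjamini-Hochberg over all peaks). Over all peaks, 22.7% were higher and 17.4% lower in Teff than in naive cells, 25.3% and 25.1% in anergic and 22.3% and 23.0% in Treg. Of the 54 higher in anergic than in naive cells, Maf held 17 and Hif1a 12. Of the 13 lower, Bcl6, Myc and Pim1 held 3 each. Anergic against Teff cells split into 30 higher and 22 lower (15.9% and 16.8% of all peaks). Hif1a, which encodes a subunit of the hypoxia-responsive transcription factor HIF-1, had a site at -5.41 kb with a mean of 238 in anergic and 24.9 in Teff cells (3.25 ± 0.37, adjusted p = 5.38e-07), whereas a site 76.9 kb from the start of Gata3, the Th2 regulator, had 101 and 575 (-2.47 ± 0.23, adjusted p = 4.02e-08).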
